A study of Mus musculus with 12 samples.

Results

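Wild type mouse whole blood was described from the 6 arrays of the series whose title starts with WT, out of 12 arrays in all. They hold 3 C57BL/6J Jax wild type mice, named A, B and C, each measured on 2 technical arrays that were averaged. The mice were females aged between 13 and 16 weeks on Mouse Breeders Diet, and were bled through the retro-orbital sinus under terminal anaesthesia. Whole blood RNA was extracted, labelled in duplicate and hybridized to Illumina MouseWG-6 v2 bead arrays. The series was made to set these mice beside Pik3cg-/- mice, whose arrays were not compared here.

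Mouse blood RNA comes from several cell types at once. Reticulocytes, the young red cells that have lost their nucleus, still carry the hemoglobin mRNA they translate. Platelets carry mRNA left by the megakaryocyte, while lymphocytes, monocytes and granulocytes transcribe their own. The sources used here name no sorting of cells and no depletion of globin mRNA, and fewer cells of a type and less RNA per cell cannot be told apart in any value below.

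Each value is a background-subtracted mean bead signal in arbitrary units. Signal orders probes, not transcripts by copy number, because probes bind with different strength. A probe was called detected where its detection p was under 0.01, and a gene was represented by its brightest probe. The arrays detected between 4648 and 4995 of 45281 probes, with the 2 lowest counts on both arrays of mouse C. Of all probes, 3796 (8.38%) were detected on all 6 arrays and 39013 on none. By gene, 2702 of 19057 named genes (14.2%) had a probe detected on all 6 arrays, and 14735 (77.3%) had no probe detected on any array.

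A small set of bright probes held much of the signal. The median signal of the probes detected on all 6 arrays was 422, 75.9% of them were under 1000, and 182 (4.79%) exceeded 10000. The 100 brightest probes held 49.9% of their summed signal and the 500 brightest held 80.0%. Probes without a single gene symbol, which stay unnamed here, held 28.0% ± 0.393 (SD, n = 3) of the sum and were 34 of the 100 brightest.

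**Figure D1:**
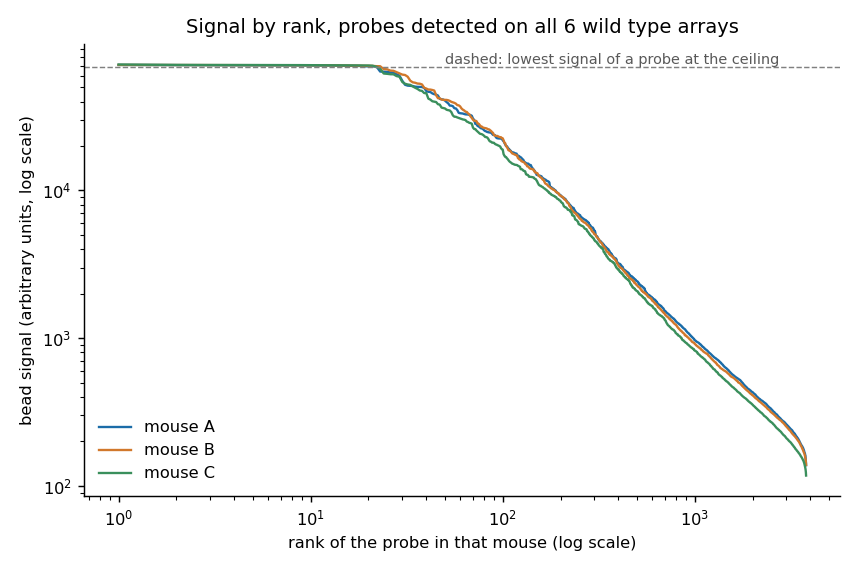
Bead signal in arbitrary units against the rank of the probe within each mouse, both on log scales, for the 3796 probes detected on all 6 arrays. Each line is 1 mouse, and all 3 lines are flat at the ceiling over the first 20 probes before they fall.

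The top of the curve was cut off at a ceiling, and what set this ceiling was not tested. On all 6 arrays, 20 probes read at least 95% of the array's highest value, between 68394 and 71915, and held 16.1% of the summed signal. Of these, 17 carry the name of 1 of 8 genes: Hbb-bs, Hbb-bt, Hba-a1, Ubb-ps, Tmem200b, Alas2, Fth1 and Rpl41. A check with the duplicates showed the saturation directly. Array A2 read higher than array A1 by a median factor of 1.40 for probes between 100 and 1000, by 1.42 between 30000 and 50000, by 1.19 for the 17 probes above 50000 that stayed below the ceiling, and by 0.998 for the 20 probes at the ceiling. The 8 genes are therefore saturated, their order among themselves is not measured, and their spread between mice has no meaning. Differences between genes or mice above 50000 are compressed as well.

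The 25 brightest named genes held 16.2% ± 0.587 of the summed signal (SD, n = 3), with 15.7% in mouse A, 16.2% in mouse B and 16.8% in mouse C. Ubb-ps and Oaz1-ps among them are pseudogene symbols of the platform annotation, and Ubb itself had no named probe. Signal of Ubb and Oaz1 on these probes cannot be told apart here. Below the 8 saturated genes the order by mean signal was Sec61g, Fam220a, Bnip3l, Gpx1, Pabpc1, Ube2o, Slc4a1, Isca1, Oaz1-ps, Tmsb4x, CYTB, Rps12, Rps24, Adipor1, Rsad2, Ypel3 and B2m. Some neighbours in this order differed by less than the spread between mice: Ube2o averaged 51219 ± 2126, Slc4a1 51029 ± 4076 and Isca1 51029 ± 3980 (SD, n = 3 each). B2m, the light chain of MHC class I, varied most of these 25 genes on the raw scale, with 50101 in mouse A, 41272 in mouse B and 30953 in mouse C. Its duplicate arrays read 37753 and 62449 in mouse A and 34464 and 48080 in mouse B, so these 2 mice overlapped. Gpx1, a glutathione peroxidase abundant in red cells, read 62735, 60479 and 45621 in mice A, B and C, so that mouse C stood lowest for both.

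**Figure D2:**
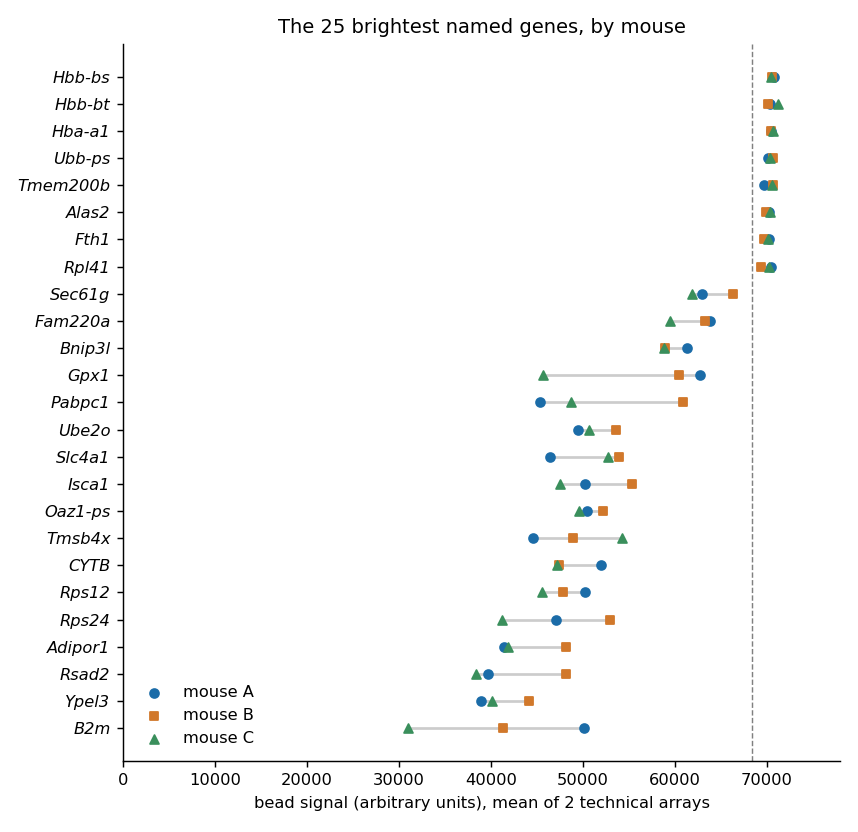
Bead signal in arbitrary units of the 25 brightest named genes, brightest first, with 1 symbol per mouse (mean of its 2 technical arrays) and a dashed line at the lowest signal of a probe at the ceiling. The upper 8 genes lie beyond the line in all 3 mice, and B2m at the bottom spans 30953 to 50101.

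Hemoglobin transcripts, the oxygen carrier's alpha and beta chains, saturated every probe of their adult genes except 1. All 6 probes of Hbb-bs, all 4 of Hbb-bt and the single probe of Hba-a1 were at the ceiling on each array. The exception, the probe of Hbb-b2, read 22459 in mouse A, 23504 in mouse B and 14894 in mouse C. The beta chain genes are near-identical copies, and signal of one on another's probe cannot be told apart here. The embryonic chains Hba-x, Hbb-bh1 and Hbb-y were undetected on every array. Counting 1 probe per gene, hemoglobin chains held 2.65% ± 0.107 of the summed signal. Both the ceiling and this count keep the share low. Each further probe of Hbb-bs and Hbb-bt held between 0.791% and 0.807% of the same sum.

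The promoters of the brightest erythroid genes are shown because these transcripts dominate the arrays together. GATAA is the core of the sites that GATA factors bind, CACCC that of Krüppel-like factors in erythroid cells, and CCAAT the box bound by CCAAT-binding factors. The 250 bases before each annotated start are from RefSeq (GRCm38.p6), 5′ to 3′ on the gene's strand, with any match to these 3 motifs on either strand in capitals. Adjacent matches run together where they overlap or touch.
Hba-a1, chr11:32283422-32283671, plus strand: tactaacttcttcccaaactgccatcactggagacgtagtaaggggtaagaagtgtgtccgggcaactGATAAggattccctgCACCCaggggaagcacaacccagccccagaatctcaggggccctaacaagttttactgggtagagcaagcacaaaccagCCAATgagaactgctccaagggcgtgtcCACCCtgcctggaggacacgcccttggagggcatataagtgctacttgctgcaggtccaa
Hbb-bs, chr7:103827929-103828178, minus strand: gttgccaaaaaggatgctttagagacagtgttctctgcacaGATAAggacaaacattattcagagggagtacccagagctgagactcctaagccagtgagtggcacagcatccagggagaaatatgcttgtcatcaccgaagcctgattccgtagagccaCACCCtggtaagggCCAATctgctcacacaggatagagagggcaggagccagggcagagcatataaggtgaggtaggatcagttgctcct
Hbb-bt, chr7:103813924-103814173, minus strand: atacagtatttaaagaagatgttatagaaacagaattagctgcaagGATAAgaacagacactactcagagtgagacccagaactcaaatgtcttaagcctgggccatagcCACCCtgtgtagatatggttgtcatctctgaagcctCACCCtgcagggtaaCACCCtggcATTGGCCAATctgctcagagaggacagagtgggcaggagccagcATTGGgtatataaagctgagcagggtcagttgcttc
Alas2, chrX:150547167-150547416, plus strand: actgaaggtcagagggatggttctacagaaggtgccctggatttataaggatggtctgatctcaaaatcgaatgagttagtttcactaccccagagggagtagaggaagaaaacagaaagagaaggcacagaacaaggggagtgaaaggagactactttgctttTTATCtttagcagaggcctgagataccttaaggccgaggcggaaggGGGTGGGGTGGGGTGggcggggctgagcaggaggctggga

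GATAA occurred once in each of the 4 windows, with its first base 182 bases before the start in Hba-a1, 209 in Hbb-bs, 204 in Hbb-bt and 86 in Alas2. CACCC occurred 3 times in Hbb-bt and in Alas2, and CCAAT was found in the 3 globin windows but not in that of Alas2. Over all 32851 listed promoter windows of this length, 22.6% held GATAA, 52.0% CACCC and 33.8% CCAAT, and 3.45% held all 3. A promoter was listed for 18 of the 25 brightest genes, of which 8 held GATAA, 10 CACCC and 10 CCAAT, against 25.5%, 54.5% and 37.5% of all 27025 genes with a listed promoter. A match describes these letters only.

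Heme synthesis genes were led by Alas2, the first and rate-limiting enzyme of the pathway in erythroid cells, which was saturated. Of 13 genes on the list with a named probe, 9 were detected on all 6 arrays, and the list held 1.43% ± 0.0656 of the signal. Slc25a37, the mitochondrial iron importer mitoferrin, read 32918, 37681 and 34952 in mice A, B and C. Slc25a39, a mitochondrial carrier, read 12268, 12136 and 10071. Urod and Fech, later enzymes of the pathway with Fech placing iron in the ring, averaged 3957 and 2862. Alas1, the form used by other tissues, averaged 346, and Uros, Cpox and Abcb10 were undetected.

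The ferritin genes led the list of iron handling. Fth1, the ferritin heavy chain, was saturated, and Ftl1, the light chain, read 37496 in mouse A, 40799 in mouse B and 33916 in mouse C. Ncoa4, the receptor that sends ferritin for breakdown, averaged 2022, and Slc40a1, the iron exporter ferroportin, averaged 397. Tfrc, the transferrin receptor, was undetected on all arrays, as were Slc11a2, Hmox1, Ireb2, Aco1 and Trf.

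Red cell membrane genes reached from near the top to below detection. Slc4a1, the anion exchanger band 3, read 46373, 53952 and 52762 in mice A, B and C, where the 2 arrays of mouse A gave 36378 and 56369. Mpp1, a palmitoylated membrane protein, averaged 10758, Tspan33, a tetraspanin, averaged 2558, and Sptb, beta spectrin, averaged 1065. In all, 9 of 20 genes were detected on all 6 arrays, and 10 were undetected on every array, namely Epb42, Add2, Tmod1, Rhag, Rhd, Ermap, Xk, Slc2a1, Icam4 and Cldn13.

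Genes of red cell enzymes and of maturation held 3.02% ± 0.0891 of the signal, counting 1 probe per gene. Bnip3l, needed to clear mitochondria from reticulocytes, averaged 59668 ± 1395 (SD, n = 3). Ube2o, a ubiquitin ligase that remodels the reticulocyte proteome, averaged 51219, and Isca1, an iron-sulfur cluster assembly protein, 51029. Prdx2, a peroxidase of the red cell, read 20475 in mouse A, 27050 in mouse B and 24108 in mouse C. The nuclear regulators of this lineage were dim by comparison. Lmo2, a partner of the erythroid GATA complex, averaged 6231 as the brightest of the list, E2f2, a cell cycle factor, 2829, Nfe2, a globin and megakaryocyte factor, 2115, and Ldb1, a bridging cofactor, 1234. Gata1, Klf1, Tal1, Gfi1b, Klf3, Runx1, Fli1 and Mef2c were undetected on all 6 arrays, 8 of 14 genes of that list.

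Ribosomal and mitochondrial transcripts formed the other large blocks. Cytosolic ribosomal protein genes held 7.10% ± 0.148 of the signal, with 47 of 59 genes detected on all 6 arrays. Counting 1 probe per gene, this was the largest share of the 38 lists. That ranking leaves out the further hemoglobin probes and depends on the length of a list. Rps12 read 50266, 47872 and 45588 and Rps24 read 47105, 52913 and 41195 in mice A, B and C, while Rplp0 passed detection on 3 of 6 arrays. The 8 named genes encoded by the mitochondrial genome held 1.29% ± 0.0638, with 6 detected. CYTB, cytochrome b, read 51915, 47440 and 47196 and ND4, a subunit of complex I, 27132, 28325 and 25022 in mice A, B and C.

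Platelet genes had the highest median signal among the lists of platelets and white cells. Of 26 genes, 20 were detected on all 6 arrays, at a median signal of 1887 against 413 over all 2694 genes whose brightest probe was detected on all 6, and they held 0.946% ± 0.181 of the sum. Pf4, the chemokine of platelet alpha granules, read 24172 in mouse A, 18622 in mouse B and 20496 in mouse C. Ppbp, another alpha granule chemokine, read 24676, 15633 and 21057. Mouse B was lowest for both, and likewise for Alox12, platelet 12-lipoxygenase, with 9510, 7062 and 10784, and Tubb1, the platelet beta tubulin, with 8735, 6416 and 8582. Itgb3, Sparc, Selp, Thbs1 and Ctla2a were undetected.

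Monocyte and macrophage genes held 0.825% ± 0.184, led by lysozyme. Lyz1 read 51232 in mouse A, 30960 in mouse B and 29919 in mouse C by its brightest probe, which alone held 0.425%. The other 2 of its 3 probes were undetected. The study lists the bright probe as Lyz, and signal of Lyz2 on it cannot be told apart here. Lyz2, the lysozyme of macrophages and granulocytes, read 12548, 9088 and 6300. Both were highest in mouse A. Ctsb, the lysosomal protease cathepsin B, read 12586, 13738 and 12251, and Fcer1g, the common Fc receptor gamma chain, 5672, 4010 and 4364. Of 27 genes 13 were detected on all 6 arrays, and Ccr2, Cd14, Fcgr1, Cybb, Itgam, Ms4a6c and Nr4a1 were undetected.

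Neutrophil genes were led by calcium-binding proteins of the mature cell. S100a8 read 15462 in mouse A, 15362 in mouse B and 10861 in mouse C, and its partner S100a9, with which it forms calprotectin, 9550, 9879 and 6141. Retnlg, a resistin-like protein, averaged 1687 and Pglyrp1, a peptidoglycan-binding granule protein, 1096. Mpo, Elane and Prtn3, made at the promyelocyte stage, and the later granule genes Ngp, Ltf and Mmp8 were undetected, as were Il1r2, Anxa1, Padi4, Stfa2l1 and Stfa3. In total 11 of 25 genes of the list were detected on all 6 arrays.

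Lymphocyte genes were dimmer and closer between mice. B cell genes held 0.232% ± 0.0119, with 14 of 18 detected. Cd79b, a signalling chain of the B cell receptor, read 7425 in mouse A, 7346 in mouse B and 6751 in mouse C, and Fcmr, the receptor for IgM, 4871, 5361 and 3814. Fcrla and Ly6d averaged 2112 and 1764. T cell genes held 0.124%, with 0.124% in mouse A, 0.124% in mouse B and 0.123% in mouse C. Cd8b1, a chain of the CD8 coreceptor, read 2464, 2375 and 2189, Cd3d, part of the CD3 complex, 1329, 1360 and 1263, and Thy1 1278, 1173 and 1046 in the same order. These are raw signals, and the summed signal of detected probes was lowest in mouse C. After the normalization given below, 8 of the 14 detected T cell genes were highest in mouse C and 8 were lowest in mouse A. The named probes of Cd4, Cd8a, Cd5, Cd28, Lef1, Themis and Ms4a6b were undetected.

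Cytotoxic genes were highest in mouse B. Ccl5, a chemokine of NK and memory T cells, read 2211 in mouse A, 3526 in mouse B and 1901 in mouse C, and Klrd1, the CD94 receptor, 671, 882 and 618. Nkg7, a granule protein, averaged 602, and 6 of 20 genes of the list were detected on all 6 arrays. Of the dendritic cell list Irf8, Tcf4 and Bst2 were detected, and of the plasma cell list Mzb1 and Xbp1. Mcm5 and Gata2 were those detected of 14 genes of progenitors and dividing cells. No gene of the eosinophil, basophil and mast cell list with a named probe was detected on all 6 arrays. Of these 12 genes, 11 were undetected on every array. Ear1 and Ear2 of that list had no named probe. A probe without a symbol that the study lists as Ear2 was detected on all 6 arrays. It read 1999, 779 and 464 in mice A, B and C.

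Antigen presentation and interferon genes were part of the baseline. Of the MHC class I genes, H2-T23 read 3182, 2865 and 2173, H2-K1 2461, 2705 and 1598 and H2-D1 2870, 2354 and 1409 in mice A, B and C. MHC class II transcripts, made by B cells and other presenting cells, included H2-Ab1 with 11271, 9500 and 8203 and Cd74, the invariant chain, with 11843, 9975 and 6388. Mouse C was lowest for all 5. Among interferon-induced genes, Ifitm3, a restriction factor of virus entry, read 5221, 3360 and 2195 and Oasl2, an oligoadenylate synthetase-like protein, 4229, 4655 and 1395, while Ifit1, Oas1a, Oasl1, Mx1, Mx2, Rtp4 and Xaf1 were undetected.

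**Figure D3:**
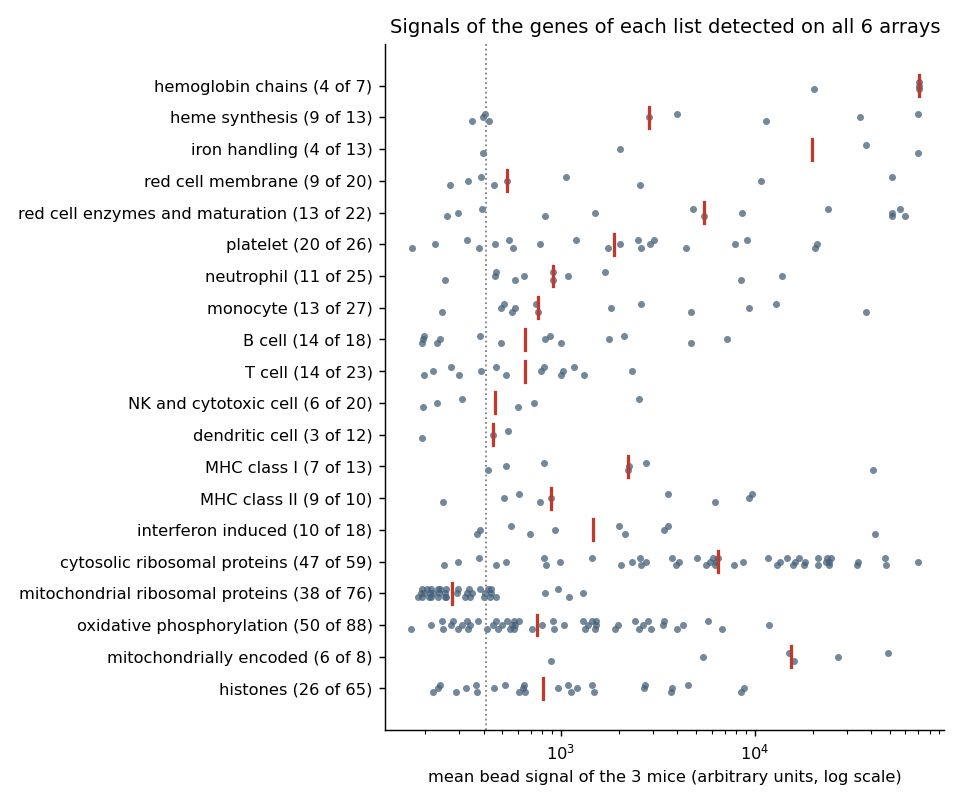
Mean bead signal over the 3 mice, in arbitrary units on a log scale, of each gene detected on all 6 arrays in 20 gene lists, with the number detected of the number with a named probe. Each point is 1 gene, red bars are list medians, and the dotted line is the median of all 2694 such genes. The medians of hemoglobin chains, iron handling genes and genes encoded in mitochondria lie far to the right, and that of mitochondrial ribosomal proteins lies to the left.

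Genes of other tissues were mostly undetected, as were 77.3% of all named genes. Of 73 genes on 8 tissue lists, 68 were undetected on every array, among them all 12 liver genes, all 8 fibroblast genes, all 9 skeletal muscle genes, all 6 adipose genes and all 12 retina and lens genes, the eye being next to the site of bleeding. Alb and Apoa1 of liver, Col1a1 of connective tissue, Acta1 of muscle, Krt5 of skin, Adipoq of fat and the lens and retina genes Cryaa and Rbp3 were among the 68. Esam, Pecam1 and Mbp were detected on all 6 arrays. Esam and Pecam1, adhesion proteins of endothelium that platelets also make, read 712, 566 and 891 and 480, 368 and 507 in the 3 mice, while the defining endothelial genes Cdh5, Kdr, Tek, Emcn, Cldn5, Tie1 and Plvap were undetected. The probes for Xist, Kdm5d, Eif2s3y and Uty were undetected, so the labelled sex was not checked.

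Probes of 1 gene could differ widely. Of the 25 brightest genes 12 had over 1 named probe, and in 5 of them a probe was not detected on all 6 arrays. Pabpc1, the cytoplasmic poly(A)-binding protein, read 51623 by its brightest probe, 252 by the second and 67.4 by the third, and Rps24 read 47071 against 115 by its second. The probes of B2m read 40775, 40549 and -11.9. Over 420 genes with at least 2 probes detected on all 6 arrays, the brightest exceeded the dimmest by a median of 1.63-fold, and by over 10-fold in 26 genes (6.19%). Tmem200b, Sec61g and Rsad2 stand among the 25 by a single probe each, named from the platform annotation, and neither the sequences of these probes nor that of the Cdr2 probe named further on were checked here. Rsad2 is an interferon-induced antiviral protein, and its probe read 39658 in mouse A, 48211 in mouse B and 38348 in mouse C, so that mouse C was close to mouse A, whereas Oasl2 read 1395 in mouse C and 4229 in mouse A.

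Spread between mice exceeded what technical error alone would give. After normalization with neqc, the median SD over the 3776 probes detected on all 6 arrays and not at the ceiling was 0.151 between the 3 mouse means and 0.164 between technical arrays (log2). As root mean squares the SD of the mouse means was 0.205, of which technical error alone would give 0.140, or 46.3% of the variance. Arrays of the same mouse correlated across these probes with a Pearson r between 0.986 and 0.987 and arrays of different mice between 0.974 and 0.983. The duplicates of the 3 mice did not overlap in 530 of the 3776 probes (14.0%).

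Among the 200 brightest genes the 10 smallest SDs between mice were those of ND4, Rps29, Cd52, Rps10, Rpl10a, Ube2o, Cox6c, Cdr2, Rps9 and Rpl32, between 0.00769 and 0.0294 (log2, n = 3). Ribosomal protein genes make up 5 of the 10. Cd52, a small glycoprotein of lymphocytes, had normalized levels of 13.28 in mouse A, 13.30 in mouse B and 13.30 in mouse C. These SDs lie below the technical SD and rank genes within the error of the arrays. Among commonly used reference genes, Actb read 6479, 5575 and 4588 in mice A, B and C by raw signal.

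Cell lineages differed between the mice as blocks. Monocyte genes stood highest in mouse A in 12 of 13 cases and lowest in mouse C in 10, and the list's median deviation from the mean of the mice was 0.40 in mouse A, 0.00 in mouse B and -0.42 in mouse C (log2). Platelet genes were highest in mouse C in 16 of 20 cases and lowest in mouse B in 19, with median deviations of 0.01 in mouse A, -0.33 in mouse B and 0.26 in mouse C. Over all 2694 genes, 32.8% were highest in mouse A, 30.3% in mouse B and 37.0% in mouse C, and the median SD was 0.148. The 6 cytotoxic genes were all highest in mouse B, and 20 of 26 histone genes were highest in mouse C with a median deviation of 0.25. Interferon-induced genes had median deviations of 0.26, 0.15 and -0.36, and neutrophil genes of 0.12, 0.17 and -0.22. The B cell and T cell lists stayed between -0.05 and 0.07 in every mouse. Genes of one list share cells and arrays, so these counts are descriptions of 3 mice without a test. By median deviation, the highest and the lowest mouse were the same under 7 other settings for the monocyte, platelet, interferon, cytotoxic and both MHC lists. For MHC class I mice A and B were close, at 0.106 and 0.110. By share of the raw signal, mouse A was highest for MHC class I (0.668% against 0.568% in mouse B). Interferon-induced genes had their highest share in mouse B (0.708% against 0.639% in mouse A). Neutrophil genes kept mouse C lowest in all 7 settings but mouse B highest in 5 of 7, and histone genes kept mouse C highest in 7 and mouse A lowest in 6.

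**Figure D4:**
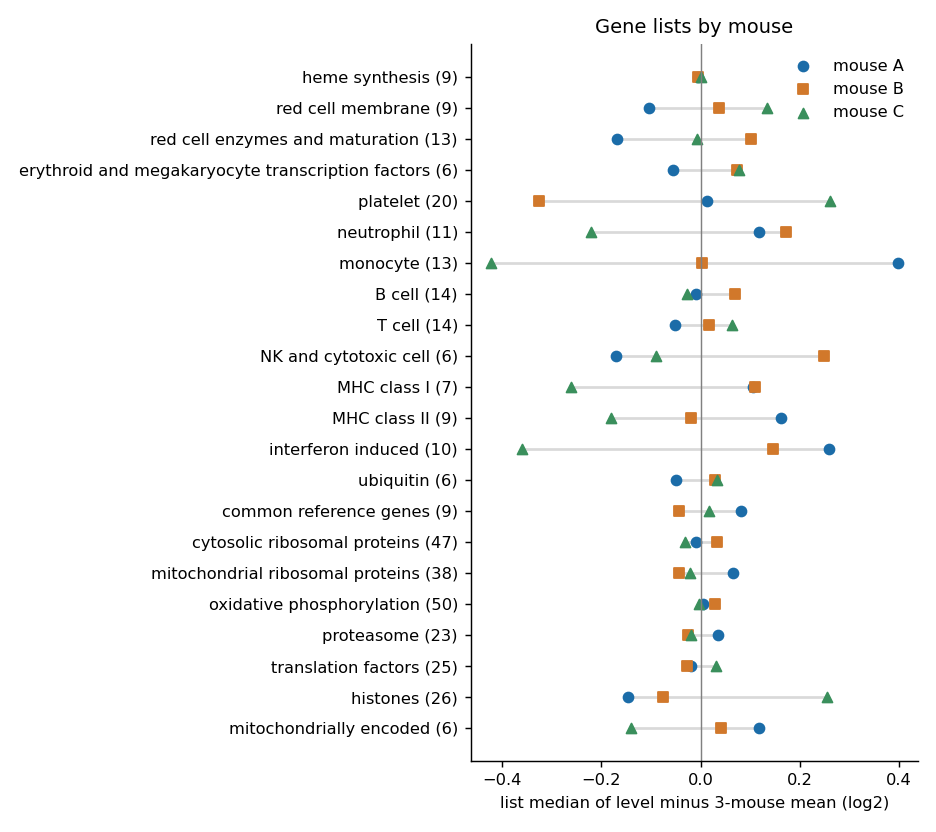
Median over each list of the genes' normalized level minus their mean over the 3 mice (log2), for the 22 lists with at least 6 genes detected on all 6 arrays, with the number of such genes. Each symbol is 1 mouse; the monocyte list spans -0.42 in mouse C to 0.40 in mouse A and the platelet list -0.33 in mouse B to 0.26 in mouse C.

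A moderated F test asked which probes differed between the 3 RNA extracts by more than their duplicate arrays did. It says nothing of wild type mice as a group, since labelling and array error is the replicate error. Of 5389 probes detected on at least 2 arrays, 8 (0.148%) passed a Benjamini-Hochberg adjusted p of 0.05 in limma, and 835 had an unadjusted p under that value. They were 2 probes of Ear3, those of Clec4a1, Emp1, Oasl2 and Ifitm6, and 2 unnamed probes, of which the study lists 1 as Ear2. Of the 8, 3 were not detected on all 6 arrays: 1 of the Ear3 probes was detected on the arrays of mouse A alone, Emp1 on those of mouse B alone, and Clec4a1 on 3 arrays. These 3 passed the filter through the mice in which they were high, so they had to differ and support nothing. With the test limited to probes detected on all 6 arrays, 41 were called, among them the other 5. No probe was called without mouse A or without mouse C, and 23 were called without mouse B. With the technical array number as a block no probe was called.

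Between mouse C and mouse A the same fit called 25 probes (0.464%), of which 3 (0.0557%) were higher and 22 (0.408%) lower in mouse C. No probe was called between B and A or between C and B, where 590 and 709 had an unadjusted p under 0.05. These counts depend on the processing: the authors' log2 values gave 172 calls between C and A, 38 between B and A and 163 between C and B. Both the block and the test without a filter left 6 probes called between C and A, all lower in mouse C. Of the 25 probes 6 were not detected on all 6 arrays, and 3 were detected in mouse A alone. These 6 passed the filter through the arrays in which they were high, so they had to differ and support nothing. Ear3, a ribonuclease of the eosinophil-associated family, read 312 and 328 on the arrays of mouse C, 617 and 761 on those of mouse B, and 1231 and 1622 on those of mouse A. The 3 mice did not overlap, and the difference C minus A was -1.86 ± 0.16 (SE, log2; limma adjusted p = 0.0138). Clec4a1, a C-type lectin receptor of myeloid cells, read 68.4 and 54.1 in mouse C and 332 and 431 in mouse A. It was detected on 3 of 6 arrays and passed the filter through the arrays in which it was high, so its call supports nothing. Ear3 is not on the eosinophil, basophil and mast cell list, where 11 of the 12 genes with a named probe were undetected. The probe that the study lists as Ear2 was detected on all 6 arrays and was among the 25. Both arrays of mouse C also detected the fewest probes, and mouse C had the lowest summed signal of detected probes. The part of this in the calls was not tested.

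The called genes with a name were 17, and 5 of them stand on the monocyte list. Clec4a1, which is 1 of these 5, and Smpdl3b and Nupr1 were not detected on all 6 arrays, so their calls support nothing. The other 4 are among 13 monocyte genes detected on all 6 arrays, where 0.464% of all probes tested were called. Genes of a list share cells, so this count is a description. Csf1r, the receptor for the growth factor of monocytes, averaged 274 in mouse C and 952 in mouse A, with a difference of -1.46 ± 0.17. Clec4a3 averaged 400 in mouse C and 1264 in mouse A, Fcgr4, an activating Fc receptor, 390 in mouse C and 1173 in mouse A, and Ly6c1 236 in mouse C and 933 in mouse A. Mouse B lay between them for each of these. Lgals3 and Mpeg1, galectin 3 and a perforin-like protein of macrophages, averaged 968 and 899 in mouse C and 2820 and 2702 in mouse A. Of interferon-induced genes, Irf7, a master regulator of that response, averaged 294 in mouse C and 1040 in mouse A (-1.54 ± 0.20), and Oasl2 1395 in mouse C and 4229 in mouse A (-1.37 ± 0.16). Hp, haptoglobin, averaged 227 in mouse C and 595 in mouse A. The named gene that was higher in mouse C was Mthfd2, a mitochondrial enzyme of folate metabolism, at 1446 in mouse C and 666 in mouse A by its brighter probe (1.34 ± 0.15, limma adjusted p = 0.0297), and its dimmer probe was called the same way. Neither was called with the block or without the filter. The third probe called higher in mouse C has no symbol in the platform annotation and is listed by the study as Rn18s, the 18S ribosomal RNA. It read 61196 in mouse C, 70000 in mouse B, where it was at the ceiling, and 30646 in mouse A, and the part of this in the other calls was not tested.

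In Emp1, an epithelial membrane protein, mouse B was highest. Oasl2 also had its highest mean in mouse B, with 4304 and 5006 on its arrays. These raw signals overlapped those of mouse A, 3207 and 5250, and the normalized difference B minus A was 0.18 ± 0.16 (SE, log2) and not called. Emp1 read -7.23 and 9.92 in mouse C, 183 and 180 in mouse B and 58.5 and 53.8 in mouse A, and was detected on the 2 arrays of mouse B. Ifitm6, of the interferon-induced transmembrane family, read 251 and 275 in mouse C, 640 and 638 in mouse B, and 824 and 1102 in mouse A.

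**Figure D5:**
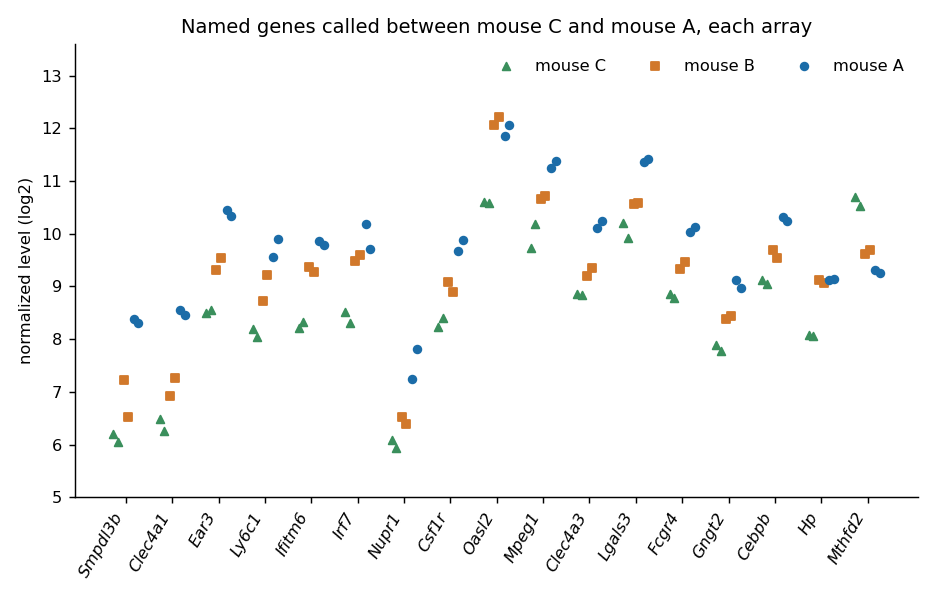
Normalized level (log2) on each array of the 17 named genes called between mouse C and mouse A, 2 symbols per mouse, with the probe of the lowest C minus A difference for genes called by several probes. Mouse C lies below mouse A for 16 genes and above it for Mthfd2. Among the 16, Clec4a1, Smpdl3b and Nupr1 were not detected on all 6 arrays and had to differ.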

How the data were processed

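The authors deposited intensity values, named average signal in the file headers, beside a detection p-value for each probe on each Illumina MouseWG-6 v2 array. Between 47.4% and 49.8% of an array's signals are negative, so background was subtracted by the authors' software before deposit, and arrays are not normalized to one another. The authors' log2 values are variance-stabilized and quantile normalized in lumi, whose version is not given in the sources used here, and served as an alternative. RNA was isolated with the RiboPure-Blood kit and labelled in duplicate.

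Raw signals of the 2 technical arrays were averaged per mouse for ranks and shares. Shares divide by the summed signal of all probes detected on all 6 arrays. For differences, neqc with an offset of 16, the limma F test (lmFit and eBayes, mouse as factor) and Benjamini-Hochberg adjustment were run over 5389 probes in R 4.3.3 with limma 3.58.1, and checked on simulated data. The number of arrays limits the precision. Probes were named from the platform annotation (34885 with 1 symbol, 18 with several, 10378 with none). RefSeq gene IDs changed 0 of the symbols.

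Named are the 25 brightest genes, the brightest members of each list and the undetected members of cell and tissue lists, called genes whose duplicates did not overlap, the 10 genes of smallest SD and genes with at least 3 probes. Members of the 7 lists made by symbol pattern, the pairwise calls, Actb and the phosphoinositide 3-kinase genes were chosen after their values were seen. The arrays and all 38 lists were chosen with earlier results of these data known. The alternatives were other normalizations, filters, single technical arrays, a block and each mouse left out. The 6 arrays of Pik3cg-/- mice entered only the alternatives that normalized all 12 arrays together.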

Additional observations from a re-analysis of the deposited data

Results flagged for a closer look

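Slc4a1, the anion exchanger of the red cell, had 1 array far from the other 5. Its signal was 36378 on the first array of mouse A and between 49869 and 56369 on the other 5, including the duplicate of the same RNA extract. The gap to the nearest array was 0.675 of the whole range, above the critical value of Dixon's test for 6 values. In all 22 measures were tested this way and chance alone passes about 1 in 20. The 6 arrays are duplicates of 3 mice and not independent. The first array of mouse A was also the dimmer of its pair by a median factor of 1.40 to 1.43 for probes under 50000 and of 1.19 between there and the ceiling.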

How the results depend on the processing

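The 25 brightest genes shared 24 or 25 genes with the list under 8 alternatives and 21 when a gene's probes were averaged, which puts Pabpc1 at rank 44 and Rps24 at rank 65. Their share of the signal was then 14.9%. The shares of 30 gene lists moved by less than 1.5-fold under every scaling and omission, but 7 of them moved by more when probes were averaged. Of 832 listed genes 390 had a probe detected on all 6 arrays, 456 at a detection p under 0.05 and 455 with at least 2 arrays. With a detection p under 0.001, 1478 probes were detected on all 6 arrays, and 6268 were detected on at least 1 array at 0.01. The median SD between mice was 0.0886 on the authors' log2 values, 0.173 with probes detected on at least 2 arrays and 0.116 to 0.130 with a mouse left out. The technical SD was 0.0977, 0.195 and 0.149 to 0.154 under the same settings. The count of 8 probes that differed between mice changed with most settings: it was 230 by the authors' log2 values, 269 with a trended and robust prior, 51 without background correction, 41 for probes detected on all 6 arrays, 24 with an offset of 50, 14 with 75th percentile scaling, 0 without a filter and 0 to 23 with a mouse left out. The pairwise calls, given as higher and lower, were 71 and 101 for C minus A, 13 and 25 for B minus A and 115 and 48 for C minus B by the authors' log2 values. With the trended and robust prior they were 77 and 117, 16 and 25, and 124 and 70 in the same order, without background correction 8 and 46, 1 and 5, and 23 and 10, and for probes detected on all 6 arrays 6 and 26, 1 and 2, and 23 and 9. The cause was not tested. All 8 probes were among those called by the authors' log2 values and 6 among those with the trended prior. The technical array number as a replicate block left 0 calls in the F test and 6 between C and A. Array 1 minus array 2 correlated with r of -0.000378 between mice A and B, 0.0693 between A and C and 0.149 between B and C. The labels do not say what the number marks, and whether it marks a batch was not tested. Each of the 8 kept its direction in each setting that could give one. Saturation limits the 8 brightest genes, signal above 50000 is compressed, and background limits the genes that are undetected.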

Other observations

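Housekeeping machinery other than the ribosome was measured at moderate signal. Of 88 oxidative phosphorylation genes 50 were detected on all 6 arrays and held 0.924% ± 0.0132 of the summed signal (SD, n = 3), led by Cox6c with 12687, 12352 and 10767 in mice A, B and C. Of 49 proteasome genes 23 were detected, and Psme3, a subunit of the nuclear proteasome activator, read 26358, 30112 and 28306. Psmd4, the ubiquitin receptor of the proteasome, read 8373, 9605 and 8478. Of 62 translation factors 25 were detected, led by Eef1a1 with 17043, 15513 and 12589. Mitochondrial ribosomal proteins were dim: 38 of 76 were detected, at a median signal of 274, against 6483 for the cytosolic ribosomal proteins. Of the ubiquitin list, Ube2l6 read 8392, 10096 and 7387 and Ube2b 7685, 8193 and 7564. Immediate early genes, which respond to handling of cells, were led by Klf2 at 1273, 1471 and 1084, and Fos read 697, 861 and 558, while Fosb, Jun, Junb, Egr2, Ier2, Ier5, Nr4a1, Atf3 and Btg2 were undetected. Of 65 histone genes 26 were detected, led by H1f2 with 8499, 7829 and 10124.

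Pik3cg, the catalytic subunit targeted in the other mice of the series, lay at the edge of detection in wild type blood. Its brighter probe averaged 118 ± 8.21 (SD, n = 3) and was detected on 2 of 6 arrays, and its other probe averaged 87.0 and was detected on none. Pik3r1, a regulatory subunit of the class IA enzymes, was detected on all 6 arrays by 2 of its 4 probes, at 321 and 273, while the 3 probes of Pik3cd were detected on none.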
